A study of Homo sapiens with 2 samples.

Results

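CCL20 and CCR6 are a chemokine and its receptor, and both transcripts had lower values when DEPDC1 was depleted in Huh-7 cells. The pair was taken by gene symbol in the platform annotation, with earlier results of these data known. Its ranks and places below are therefore descriptions only. It makes 2 genes of the 18417 that had a probe set of their own. Huh-7 is an established human hepatocellular carcinoma line. One group was transfected with DEPDC1 siRNA and the other with the control that the labels call NC; both were collected at 72 h. Each group gave total RNA for 1 array, so the spread between cultures is unknown, no difference was tested and no p-value is given. The labels state neither how many siRNAs were used against DEPDC1 nor what NC contains.

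CCL20 is a small secreted CC chemokine that epithelial cells and hepatocytes make when inflammatory cytokines act on them through the transcription factor NF-kB. It attracts cells that carry CCR6, a receptor coupled to inhibitory G proteins, among them immature dendritic cells, B cells and the T helper cells that make interleukin 17. CCR6 has no other known chemokine ligand, although some beta-defensins also bind it, and its expression has been described on carcinoma cells as well.

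The bases just before the transcription start are shown for both genes because the CCL20 promoter is a known NF-kB target and the CCR6 promoter gives the comparison. They come from the RefSeq promoter table of GRCh38.p14, cover 250 bases and end 1 base before the start. The CCL20 window is chr2:227813592-227813841 on the plus strand, and the CCR6 window is chr6:167111545-167111794 on the plus strand. Capitals mark matches on either strand to the kappa B consensus, to TATAAA and to CAGGAAG, a form of the site of ETS family factors.
CCL20: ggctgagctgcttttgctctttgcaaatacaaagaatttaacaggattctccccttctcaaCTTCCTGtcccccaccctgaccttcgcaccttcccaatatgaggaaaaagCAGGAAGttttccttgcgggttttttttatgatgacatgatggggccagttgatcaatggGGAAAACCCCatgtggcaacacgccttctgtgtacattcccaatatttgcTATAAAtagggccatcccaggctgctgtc
CCR6: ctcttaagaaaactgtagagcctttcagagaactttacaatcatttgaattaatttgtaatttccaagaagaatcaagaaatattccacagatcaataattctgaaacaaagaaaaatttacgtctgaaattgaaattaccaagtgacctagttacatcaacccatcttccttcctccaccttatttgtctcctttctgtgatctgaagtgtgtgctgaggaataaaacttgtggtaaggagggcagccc
The CCL20 window held 1 match to the kappa B consensus, on the minus strand from 79 to 70 bases before the start. That consensus was GGGRNNYYCC, where R is A or G, Y is C or T and N is any base. The window shows the match in plus-strand letters, as GGAAAACCCC. It also held TATAAA from 29 to 24 bases before the start, and CAGGAAG at 139 to 133 bases on the plus strand and at 189 to 183 bases on the minus strand. None of these marked stretches overlapped another. The CCR6 window shown held no match, nor did those of the other 2 RefSeq start sites of CCR6. TGANTCA, the AP-1 site, was searched too and was found in none of these windows. Among 35114 promoter windows of 250 bases, 9.96% held the kappa B consensus, 10.7% held TATAAA, 10.5% held CAGGAAG and 6.57% held TGANTCA on either strand. The motifs were chosen with the sequences in view. A match is only a match of letters, and an absent match says nothing of a factor.

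CCL20 had a log2 expression of 10.31 in the DEPDC1 siRNA array and 11.64 in the NC array. The siRNA array was thus lower by a log2 difference of -1.32, which is 2.50-fold. CCL20 stayed one of the brightest transcripts in both arrays: 123 genes had a higher value than CCL20 in the siRNA array and 8 in the NC array, although probes differ in how strongly they bind. Both values lay far above 4.66, the pooled median of every probe set, which served as detection threshold by convention because no background was measured. A single probe set (8048864, Entrez gene 6364) measured it.

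CCR6 had a log2 expression of 3.61 in the DEPDC1 siRNA array and 5.24 in the NC array. The log2 difference was -1.64, a measured 3.11-fold. The siRNA value lay 1.05 below the detection threshold and the NC value 0.59 above it, so the fold that does not rest on a dim value is at least 1.50-fold lower. A higher value than that of CCR6 was found for 14269 genes in the siRNA array and for 9073 in the NC array. Its 1 probe set was 8123364 (Entrez gene 1235). In RNA of a whole culture, fewer cells that express a gene and less of its RNA per cell cannot be told apart.

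Both genes were thus among the detected genes at least 2-fold lower by measured value, a class that held 98 of 11352 detected genes, or 0.863%. A gene counts as detected where the higher of its values reaches the threshold, as for 11352 of the 18417 genes. Of all detected genes, 39 had a more negative difference than CCL20 and 18 a more negative one than CCR6. When values under the threshold were raised to it, 0.802% of detected genes lay at least 2-fold below NC; CCL20 was among these and CCR6 was not. The opposite direction was more frequent, with 1.94% at least 2-fold higher by measured value and 1.61% after values were raised to the threshold. Over all detected genes the median difference was 0.00 and the SD was 0.40 on the log2 scale.

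Each gene was also placed among genes of similar mean level, since dim and bright probe sets scatter differently. Among the 200 genes nearest to CCL20 in mean log2 level, 1 had a more negative difference. That gene was APOB, the apolipoprotein of very low density lipoprotein, with 9.32 in the siRNA array and 10.67 in the NC array. TF (transferrin, -1.09) and AMBP (a plasma protein precursor, -1.07) followed CCL20, and these 3 were named after their values were seen. The central 90% of these 200 differences ran from -0.47 to 0.48, around a median of -0.02. CCL20 lay outside that range.

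For CCR6, none of the 200 genes on the array nearest in mean log2 level had a more negative difference. Their differences had a median of -0.09, a central 90% from -0.36 to 0.33 and a minimum of -1.18, that of KIAA0040. Restricting the 200 to detected genes widened the central 90% to the range from -0.58 to 0.99, and again none was lower than CCR6. That restricted group is shaped by the filter, because its mean levels, from 4.24 to 4.62, all lie under the threshold and a gene could enter only by differing between the arrays. The place among all genes on the array does not depend on that filter.

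**Figure D1:**
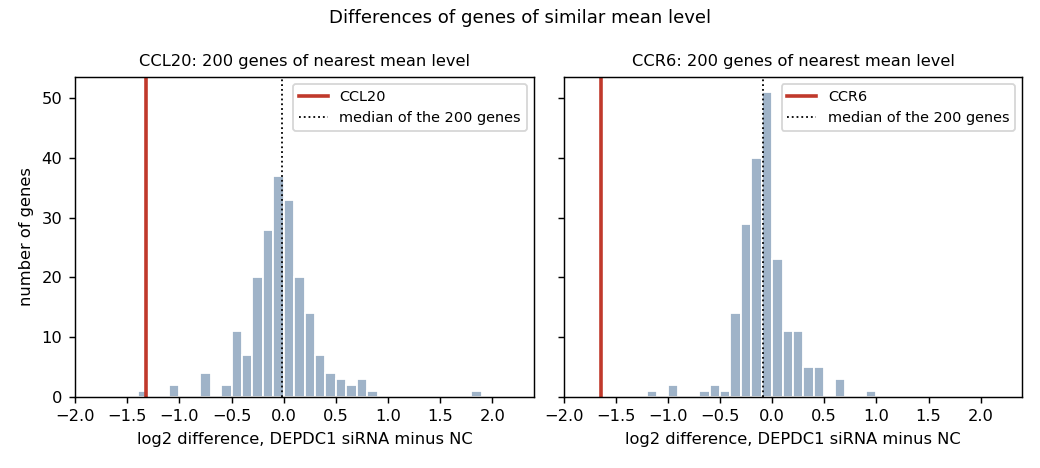
Each panel shows how many of the 200 genes on the array nearest in mean level fall in each step of the log2 difference (DEPDC1 siRNA minus NC), with the chemokine or receptor as a red line and the median of the 200 as a dotted line. CCL20 at -1.32 has 1 gene below it, and CCR6 at -1.64 has 0.

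No second probe set exists on the array for either gene, and none that lists several genes names them, so neither difference could be checked on other probes. As a gauge of measurement scatter alone, 444 genes had several detected probe sets. The range of the difference between probe sets of one gene had a median of 0.0866 and a 90th percentile of 0.413 on the log2 scale. The differences of CCL20 and CCR6 are larger than both, but this gauge holds nothing of the spread between cultures. It also pools detected probe sets of all levels, so it says little of a value as dim as that of CCR6 in the siRNA array.

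The knockdown itself was visible in the same arrays: DEPDC1 had 5.15 in the siRNA array and 7.82 in the NC array. TNFAIP3, which encodes a feedback inhibitor of NF-kB, had 4.66 in the siRNA array and 5.63 in the NC array, a difference of -0.97. DEPDC1B, the paralog of DEPDC1, differed by -0.95. Neither passed 2-fold as deposited, but with each array centred on the median of detected genes TNFAIP3 was at -1.03 and DEPDC1B at -1.01, just past it. The deposited siRNA value of TNFAIP3 lay just above the detection threshold.

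The array measured 60 chemokines and chemokine receptors separately, and 13 of them were detected, against 11352 of all 18417 genes. By measured value CCL20 and CCR6 were the 2 of these 13 at least 2-fold lower, and the other 11 reached no lower than -0.69. Over all detected genes the share was 0.863%, from which nothing is read here: CCR6 was detected through its NC value alone, its bound is under 2-fold, and the pair was chosen with these results known. CXCL5, which attracts neutrophils, and CXCR4, the receptor of CXCL12, were the 2 at least 2-fold higher by measured value, against 1.94% of all detected genes. CXCL5 had 7.94 in the siRNA array and 6.29 in the NC array. CXCR4 had 4.87 in the siRNA array and 3.57 in the NC array, under the threshold, and was at least 1.16-fold higher. The median difference of the 13 was -0.33, with members on both sides of 0.

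Among CC chemokines, 3 of the 20 on the array were detected. CCL20, chosen with its result known, was the 1 at least 2-fold lower, against 0.863% of all detected genes. CCL17, a ligand of CCR4, had 5.28 in the siRNA array and 5.51 in the NC array. CCL28, a mucosal chemokine, had 4.76 in the siRNA array and 4.33, under the threshold, in the NC array, a bound of at least 1.08-fold higher. The 17 CC chemokines that were not detected had differences from -0.33 to 0.31. CCL19 and CCL21, the ligands of CCR7, were both in this group.

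The CXC, CX3C and XC chemokines included several that, like CCL20, are known targets of NF-kB. Of 19 on the array 7 were detected, 5 of them with a negative difference, against 48.1% of all detected genes. CXCL1 had 6.83 in the siRNA array and 7.21 in the NC array, and CXCL8, the neutrophil chemokine interleukin 8, had 5.32 in the siRNA array and 5.66 in the NC array. CXCL2 differed by 0.09. Differences of these neutrophil chemokines, CXCL5 included, ran from -0.38 to 1.65, and any control shared with CCL20 was not tested. CXCL16, a membrane-bound chemokine, had 7.53 in the siRNA array and 8.22 in the NC array, the most negative difference of the 13 after those of CCR6 and CCL20. CX3CL1 (fractalkine) differed by -0.42 and XCL1 (lymphotactin) by -0.19.

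Of 21 chemokine receptors on the array, 3 were detected: CCR6, CXCR4 and CCR7. CCR7, the lymph node homing receptor, had 4.30 in the siRNA array, under the threshold, and 4.82 in the NC array, a bound of at least 1.12-fold lower. The 18 receptors that were not detected had values from 2.40 to 4.62 in the siRNA array and from 2.22 to 4.50 in the NC array. The value of CCR6 in the siRNA array was inside that span. DEFB1, a beta-defensin and the 1 member of that list with a probe set of its own, had 5.07 in the siRNA array and 4.88 in the NC array.

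**Figure D2:**
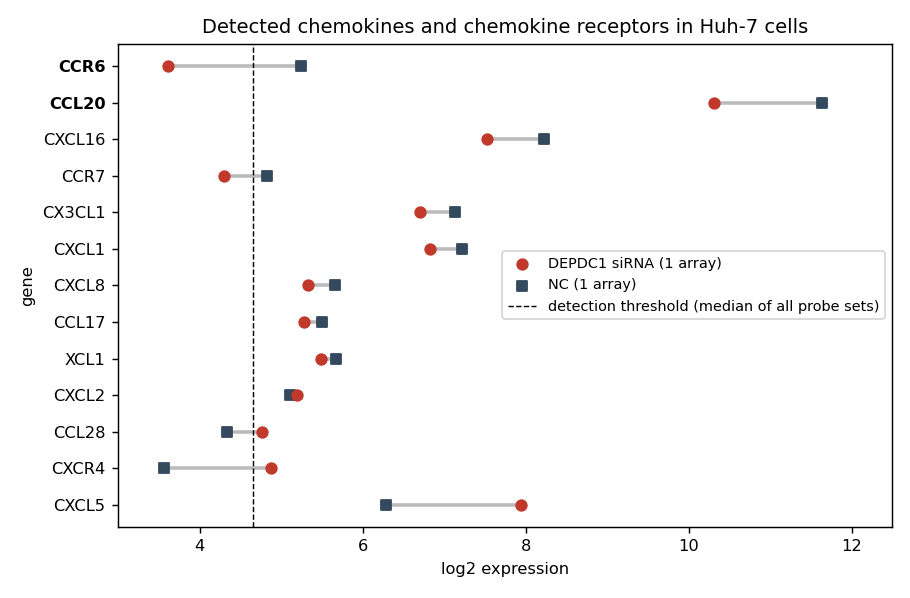
Log2 expression of the 13 detected chemokines and chemokine receptors in the DEPDC1 siRNA array (red circles) and the NC array (dark squares), ordered from the most negative difference at the top, with the detection threshold as a dashed line. CCR6 and CCL20 head the order, CCR6 crosses the threshold, and CXCL5 and CXCR4 lie at the opposite end.

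The signals known to induce CCL20 were mostly dim. Of 11 inducing cytokines, 2 were detected. TNFSF14 lay under the threshold after siRNA, a bound of at least 1.17-fold lower, and IL17A differed by -0.17. The others, among them TNF and IL1B, were under the threshold in both arrays. Of their receptors and adaptors, 14 of 21 were detected, with a median of 0.18. None of the 14 was at least 2-fold different, against 0.863% of all detected genes lower and 1.94% higher. The receptor genes IL22RA1 and IL17RC were among the 7 under the threshold in both arrays. LTBR, the lymphotoxin beta receptor, had 7.42 in the siRNA array and 6.90 in the NC array. IL10RB, a shared subunit of the interleukin 22 receptor, differed by 0.49, IL1R1 by 0.41 and TNFRSF1A by 0.36. A negative difference was found for 5 of these 14 genes, against 48.1% of all detected genes. Over all 21 genes on the array the median was 0.03, and TLR2 and TLR3, under the threshold in both arrays and named after their values were seen, differed by -0.74 and -0.82.

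NF-kB subunits, their kinases and their inhibitors had 21 of 22 genes detected, 15 with a negative difference, against 48.1% of all detected genes, and a median of -0.15. None was at least 2-fold different as deposited, against 0.863% of all detected genes lower and 1.94% higher. By measured value TNFAIP3 passed 2-fold under the centring named above. After TNFAIP3 the most negative was REL, a subunit, with 6.25 in the siRNA array and 7.18 in the NC array. CHUK, a kinase that activates the pathway, differed by -0.58. CYLD, a deubiquitinase that restrains it, lay under the threshold after siRNA, a bound of at least 1.27-fold lower. The subunits RELA and NFKB1, named after their values were seen, differed by -0.01 and -0.02.

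Other factors that act on the CCL20 promoter had 13 of 14 genes detected, with a median of 0.16. Of these 13 genes, 3 had a negative difference, against 48.1% of all detected genes. STAT3 had 8.30 in the siRNA array and 7.50 in the NC array, and ATF3, a stress-induced factor, differed by 0.62. JUNB, an AP-1 subunit, had 5.93 in the siRNA array and 6.63 in the NC array. FOS, another AP-1 subunit, was under the threshold in the NC array and was at least 1.22-fold higher. Regulators of unstable cytokine mRNA were all 10 detected, with a median of -0.21. A lower value in the siRNA array was found for 7, against 48.1% of all detected genes. ZFP36L2, which promotes decay of AU-rich mRNA, differed by -0.65, TIA1 by -0.39, RC3H1 by -0.23 and ELAVL1, which stabilises such mRNA, by -0.21. No member of either list was at least 2-fold different.

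Downstream of the receptor, 24 of 31 genes of chemokine receptor signalling were detected, 7 with a negative difference against 48.1% of all detected genes, and their median was 0.15. GRK3, a kinase that phosphorylates active receptors for desensitisation, alone passed 2-fold in the higher direction, with 7.63 in the siRNA array and 6.53 in the NC array. GRK5, of the same kinase family, had 5.80 in the siRNA array and 6.65 in the NC array. AKT1 differed by 0.65 and RGS2, which limits G protein signalling, by 0.49. Over all detected genes 1.94% were at least 2-fold higher by measured value. No gene of this list was at least 2-fold lower, against 0.863% of all detected genes. Without the filter the median over the 31 genes was 0.08.

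**Figure D3:**
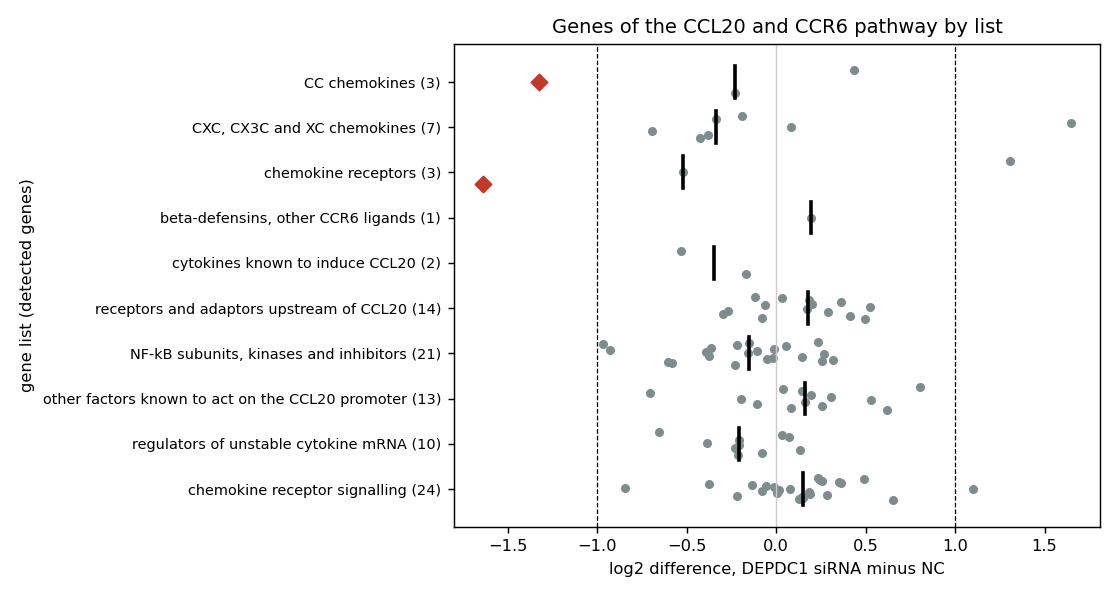
Each point is the log2 difference (DEPDC1 siRNA minus NC) of 1 detected gene, by list, with CCL20 and CCR6 as red diamonds, list medians as black bars and dashed lines at 2-fold. Every list median lies between the dashed lines, and the red diamonds lie outside them.

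The genes beside CCL20 and CCR6 on their chromosomes gave the local context. Of the 6 nearest protein-coding genes around CCL20 on chromosome 2, 3 were measured separately. PID1, which encodes a phosphotyrosine-binding protein, was the 1 detected, with 5.30 in the siRNA array and 5.92 in the NC array. DAW1 and SPHKAP were under the threshold in both arrays and differed by -0.01 and -0.55. Around CCR6 on chromosome 6, 5 of 6 had a probe set. RNASET2, a ribonuclease, had 5.20 in the siRNA array and 5.52 in the NC array, and CEP43, a centrosome protein, had 7.44 in the siRNA array and 7.54 in the NC array. GPR31, UNC93A and TTLL2 were under the threshold and differed by 0.04, -0.61 and -0.15. No measured neighbour of either gene was at least 2-fold different, against 0.863% of all detected genes lower and 1.94% higher.

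**Figure D4:**
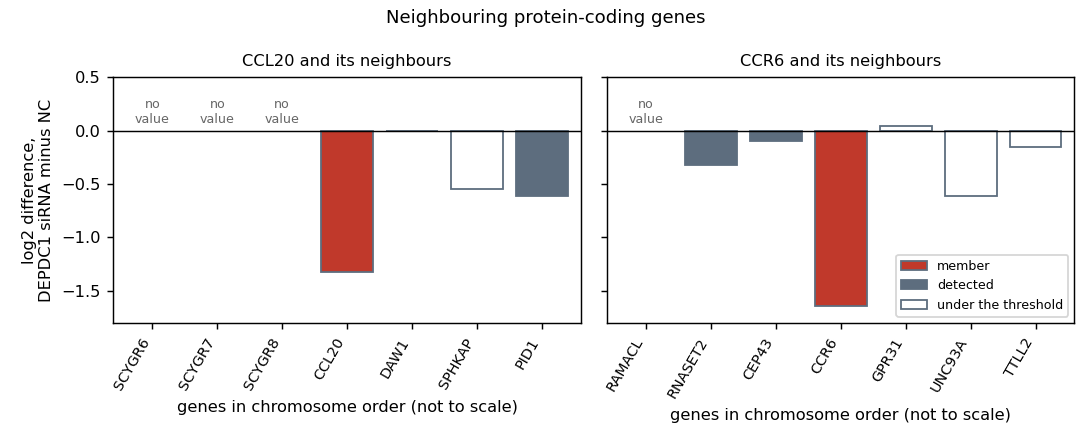
Bars give the log2 difference (DEPDC1 siRNA minus NC) of CCL20, CCR6 (red) and the 3 nearest protein-coding genes on each side in chromosome order, filled where detected and open where under the threshold in both arrays; genes with no probe set of their own have no bar. The measured neighbours run from -0.62 to 0.04, against -1.32 for CCL20 and -1.64 for CCR6.

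The genes most like each member were taken as the detected genes with the smallest distance between their pairs of log2 values, over these 2 arrays. For CCL20 these were FGA, a fibrinogen chain, at a distance of 0.59, followed by RPS6KA3, GPC3, CANX and KPNA2 at 0.70 to 0.75. FGA had 10.27 in the siRNA array and 11.05 in the NC array. All 5 had a negative difference, from -0.78 to -0.26, smaller than that of CCL20. For CCR6 they were KIAA0040, SLC27A2 (a fatty acid transport protein), EML6, BAAT (a bile acid conjugating enzyme) and PRTG, at distances of 0.32 to 0.47. BAAT had 3.84 in the siRNA array and 5.56 in the NC array. These 5 also crossed the threshold between the arrays, so their folds are bounds of at least 1.18-fold to 1.88-fold lower. Likeness over 2 arrays says only that the values lie close together.

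CCR6 is normally a leukocyte receptor, so markers of the cells that carry it were read beside it. None of 6 B cell markers was detected. Of 9 T cell markers, CD3G and FOXP3 were detected, with differences of -0.16 and -0.17, while CD3E was under the threshold in both arrays. Of 10 dendritic cell and myeloid markers, CD14 and LYZ were detected, LYZ with 6.05 in the siRNA array and 4.85 in the NC array. PTPRC, the pan-leukocyte marker CD45, had 2.38 in the siRNA array and 2.28 in the NC array, under the threshold in both. The summed unlogged levels were 89.9 in the siRNA array and 87.7 in the NC array for B cell markers, and 165.8 in the siRNA array and 176.4 in the NC array for T cell markers. For dendritic cell and myeloid markers they were 289.6 in the siRNA array and 228.5 in the NC array. All of these sums include markers under the threshold, and CD14 and LYZ were the only detected ones in the last. Markers of Huh-7 and hepatocytes were detected for all 15 genes on the array. Of these, 5 were at least 2-fold lower, against 0.863% of all detected genes, and 1 at least 2-fold higher, against 1.94%. Their median was -0.50, with 10 of the 15 lower and 5 higher in the siRNA array. AFP (alpha-fetoprotein) had the most negative difference with 8.92 in the siRNA array and 10.89 in the NC array. The highest difference was that of TTR, with 9.72 in the siRNA array and 8.31 in the NC array. The part of these markers in the lower CCL20 and CCR6 values was not tested.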

How the data were processed

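Total RNA of 2 Huh-7 cultures was labelled with biotin and measured on Affymetrix arrays, per the labels. The deposited table holds 1 log2 value per probe set and array, the unit being inferred from the values (1.39 to 12.7). The submitters' processing notes name Transcriptome Analysis Console 3.0 and Affymetrix Expression Console; background correction and normalization are not given in the sources used here. The sorted columns differed by at most 0.0997, so no further scaling was applied.

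Of 33297 probe sets, the platform annotation gave 1 gene for 19460, several for 1754 and none for 12083. For 19429 of the single-gene probe sets the Entrez identifier matched RefSeq (GRCh38.p14), and the RefSeq symbol was used. For 769 genes with several probe sets, the one of highest mean was used. Values were computed with Python 3.11.15 and pandas 2.3.3, and the procedure was tested on simulated data. Differences are siRNA minus NC. The number of arrays limits the precision.

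Named genes are CCL20, CCR6, DEPDC1, DEPDC1B, TNFAIP3, all detected chemokines and receptors, the 4 largest absolute differences of each other pathway list, 3 neighbours on each side, the 5 most alike genes, and markers. The members and lists were chosen with earlier results of these data known. Alternatives covered scaling, probe set choice, thresholds and window size. Genes whose probe sets name several genes were not analysed here.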

Additional observations from a re-analysis of the deposited data

How the results depend on the processing

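The differences ranged from -1.38 to -1.29 for CCL20 and from -1.70 to -1.61 for CCR6 under quantile normalization and median centring. Both kept their direction and stayed past 2-fold by measured value. Quantile normalization could move a value little, since the sorted columns differed by at most 0.0997. Averaging of probe sets could change neither difference, because each gene has 1 probe set. The share of genes of similar level with a more negative difference was 0% for CCL20 with 100 genes, 0.8% with 500 and 2% when matched on the NC value; for CCR6 it was 0.2% with 500 genes and 0% in the other settings. The bound on CCR6 depended on the threshold, a check chosen after seeing the data: it was 3.11-fold lower with the 25th percentile as threshold, which leaves both values above it, and 1.04-fold lower with the median of gene-listed probe sets (5.18). At the 75th percentile CCR6 was not detected, so no bound exists there. Genes at least 2-fold lower numbered 76 to 119 over all settings. Genes at least 2-fold higher numbered 137 with the 75th percentile, where fewer genes are counted, and 183 to 230 otherwise. TTR, IL22RA1 and IL17RC were not part of these checks. Of 72 other genes given with a value or named as undetected, 1 moved by more than the SD between probe sets of a gene (0.157): GRK5, at -0.68 as the mean of its probe sets. Under median centring TNFAIP3 (-1.03), DEPDC1B (-1.01) and PRTG (-1.03) passed 2-fold by measured value. As deposited, PRTG lay under the threshold after siRNA, a bound of at least 1.21-fold lower, and TNFAIP3 lay just above the threshold. No other of the 72 genes changed sides of 2-fold under the 3 settings of scaling and probe set. Without the filter the medians of CXC, CX3C and XC chemokines and of chemokine receptors were -0.08 and 0.00, and those of upstream receptors and of receptor signalling were 0.03 and 0.08. No paired analysis was possible because each group has 1 array. Scanner intensities and detection calls were not used here, so signal over background is unknown.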
